A study of Mus musculus with 6 samples.

Results

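The genes that encode the protein subunits of the cytosolic ribosome were followed in the soft palate of mouse embryos at E14.0. Members were taken by symbol: Rpl or Rps followed by digits, with the optional letters a, l, x or y and an optional last digit, together with Rplp0, Rplp1, Rplp2 and Rpsa. Symbols holding -ps and the Rps6k kinases were left out. The rule found 87 of the 21938 genes in the table, 51 with Rpl symbols and 36 with Rps symbols. In the annotation 81 of them are protein coding and 6 are pseudogenes, namely Rpl32l, Rpl6l, Rps12l1, Rps3a2, Rps3a3 and Rps4l.

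RNA sequencing compared 3 mutant libraries, replicates 5, 6 and 7, of genotype Osr2-Cre;b-cateninfl/fl with 3 control libraries, replicates 1, 2 and 3. The controls carried the same floxed b-catenin alleles without the Cre, per the labels' protocol, although their genotype field reads wild type. The floxed allele is thus common to both groups, and the Cre acts where Osr2 is expressed, which in the palate is chiefly mesenchyme. Each p-value rests on the spread among these 6 libraries, since the labels do not say whether a library is 1 embryo or a pool.

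A ribosome has a large 60S and a small 40S subunit, and most of their proteins are made in equal numbers, from genes that are expressed in every tissue and most strongly in growing ones. Their mRNAs are short and abundant. Most begin with a run of pyrimidines at the cap, the 5′ terminal oligopyrimidine or TOP tract, through which LARP1 and the kinase complex mTORC1 control their translation and stability. Most of these genes also have many processed pseudogenes, copies of the spliced mRNA inserted elsewhere in the genome, so short reads can match several places.

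The start of the transcript is shown for 6 members, picked after their sequences had been seen, to show what a TOP tract looks like and that the annotated start does not always hold one. Each line gives 10 bases before and 20 bases from the RefSeq start on GRCm38.p6, read 5′ to 3′ on the gene's strand. Capitals mark the longest run in the window that is a C followed by at least 4 further C or T bases. The windows lie at chr4:86857348-86857377 (minus strand) for Rps6, chr7:141447641-141447670 (plus) for Rplp2, chr7:45718061-45718090 (plus) for Rpl18, chr3:90213629-90213658 (minus) for Rps27, chr7:99483690-99483719 (minus) for Rps3 and chr7:28350679-28350708 (plus) for Rps16.
Rps6: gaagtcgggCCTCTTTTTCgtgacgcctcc
Rplp2: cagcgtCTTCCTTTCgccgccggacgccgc
Rpl18: ctcgcaggccgCTCTTTCCCCgcccactcc
Rps27: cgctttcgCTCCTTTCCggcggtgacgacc
Rps3: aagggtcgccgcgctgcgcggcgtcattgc
Rps16: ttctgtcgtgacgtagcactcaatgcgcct
Of the 87 members, 62 had an entry in the RefSeq start table. Within a window of 40 bases centred on the start, the letters CTTTCC were found on the sense strand of 10 of the 62 (16.1%) against 2.30% of 27025 genes, and on the antisense strand of 0 members against 2.03%. The overlapping letters CTCTTTC were on the sense strand of 7 members (11.3%) against 0.662% of genes, and on the antisense strand of 1 member. CCTTTC was on the sense strand of 8 members (12.9%) against 2.05% and on the antisense strand of 0. The shorter CTTCC was on the sense strand of 18 members (29.0%) against 10.3% of genes and on the antisense strand of 13. These motifs and the window were settled on after several had been tried, and a match describes the letters only.

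Most ribosomal protein genes lay slightly lower in mutant than in control soft palate, and none passed the test. The values are CPM, the reads of a gene scaled so that every library has the same total. Each gene was tested with limma on log2(CPM + 1) over all 21938 genes, and a gene was called at a Benjamini-Hochberg adjusted p under 0.05. Of the 87 members 0 were called, where 105 genes, 0.479% of all, were called. At an unadjusted limma p under 0.05 there were 21 lower members (24.1%), where 8.07% of all genes were lower, and 0 higher members, where 13.4% of all genes were higher. The log2 change, mutant minus control, was below 0 for 68 members (78.2%) and above 0 for 19. Of all genes 43.9% were below 0, and of genes with a mean of at least 10 CPM 53.6%. The members' median log2 change was -0.14, with an interquartile range of -0.31 to -0.02. The median was 0.04 over all genes and -0.02 over the 11044 genes with a mean of at least 10 CPM, of which 12.4% were lower at an unadjusted p under 0.05. In 15 members (17.2%) every mutant library lay below every control library, which held for 10.8% of all genes. Among genes with a mean of at least 10 CPM it held for 15.6%, near the members' share. Of the 77 members at that level it held for 19.5%. In 0 members did the groups separate the other way, where 17.1% of all genes did. Among genes with a mean of at least 10 CPM 13.95% separated that way.

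The size of these counts rested in part on single libraries. Without mutant replicate 5 the members lower at an unadjusted p under 0.05 numbered 10, without mutant replicate 7 they numbered 11, and with a prior variance that does not follow expression level they numbered 13. The median log2 change of the members was -0.09 without mutant replicate 5 and -0.08 without control replicate 3.

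**Figure D1:**
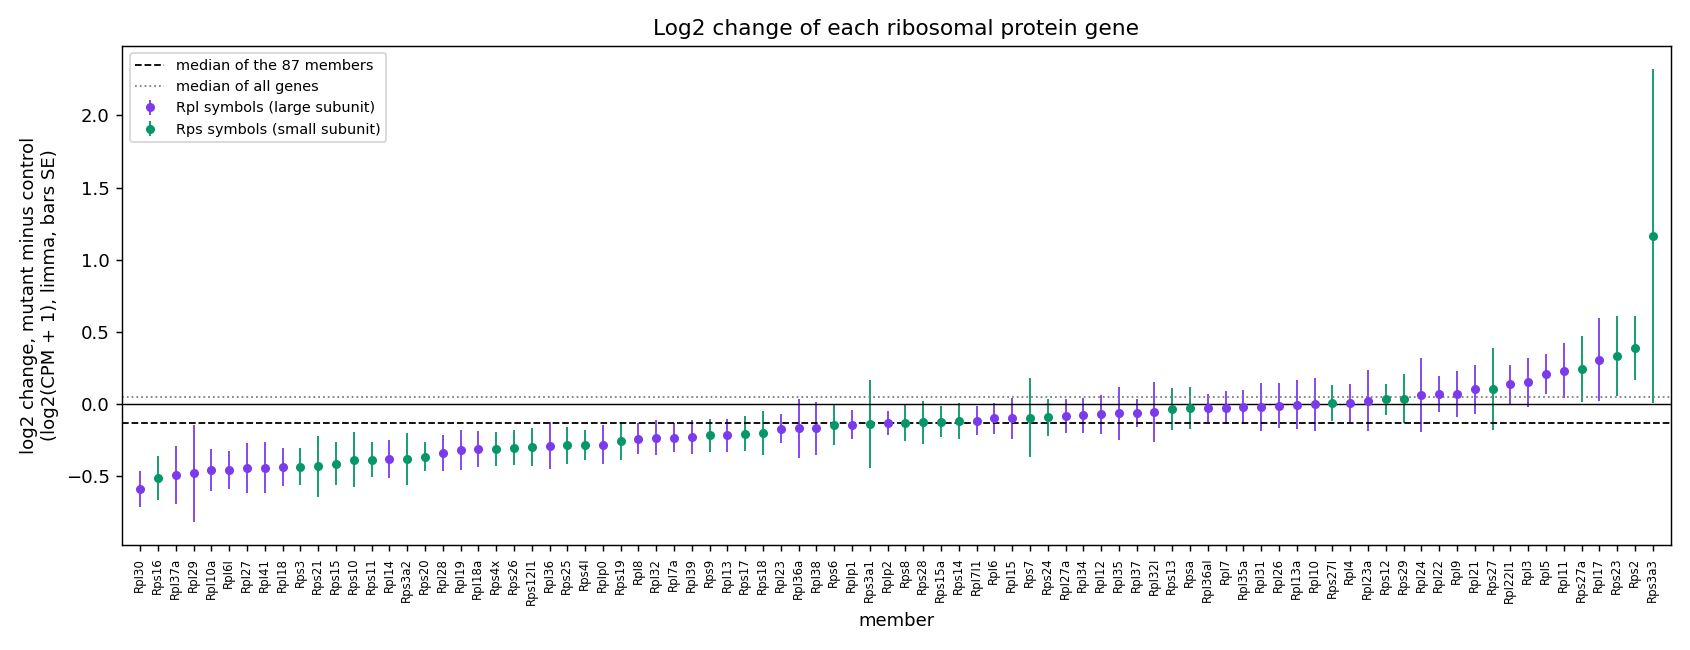
Log2 change (mutant minus control, on log2(CPM + 1)) of the members in order, each with its standard error from limma; violet marks Rpl symbols and green Rps symbols, the dashed line is the members' median and the dotted line that of all genes. Most points lie between -0.6 and 0.4, the greater number below 0, and Rps3a3 at the right end has an error as large as its change.

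Both subunits had a median below 0. The 51 Rpl members had a median log2 change of -0.10, with 40 below 0 and 12 (23.5%) lower at an unadjusted limma p under 0.05. The 36 Rps members had a median of -0.17, with 28 below 0 and 9 lower at that p. Summed over members, large subunit genes took 6799, 8343 and 7325 CPM in the mutant libraries and 7714, 8085 and 9242 CPM in the control libraries. Small subunit genes summed to 5115, 6189 and 5314 CPM in the mutant libraries and 5616, 6108 and 6918 CPM in the control libraries. In both sums mutant replicate 6 lay above control replicates 1 and 2, so the groups overlapped, and in both the exact permutation p was 0.3 (two-sided, 3 libraries against 3, for which 0.1 is the smallest possible). The test of a difference between the subunits' changes was not run.

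All 87 members together summed to 11915, 14532 and 12639 CPM in mutant replicates 5, 6 and 7, and to 13330, 14193 and 16160 CPM in control replicates 1, 2 and 3. Means were 13029 ± 1351 CPM in mutant and 14561 ± 1450 CPM in control (SD, n = 3 each), a difference of -10.5%. The exact permutation p was 0.3, and 0.48 after Benjamini-Hochberg adjustment over 8 such tests of summed values and ratios. The genes of the ribosome thus accounted for 1.19 to 1.45% of the counted reads in mutant libraries and 1.33 to 1.62% in control libraries. The log2 ratio of the group means was -0.16, and -0.08 without control replicate 3.

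The members' levels also differed between libraries of 1 group. The median of the members' deviation from their own mean, on log2(CPM + 1), was -0.18, 0.06 and -0.14 in mutant replicates 5, 6 and 7, and -0.03, 0.08 and 0.21 in control replicates 1, 2 and 3. Mutant replicate 5 was the lowest of the 6 libraries for 42 members, and control replicate 3 was the highest for 47. Mutant replicate 6 lay with the control libraries on this measure. Over genes with a mean of at least 10 CPM the same medians ran only between -0.03 and 0.02. Within a group the members' median coefficient of variation was 11.8% in mutant and 14.2% in control.

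The P stalk, which recruits elongation factors to the large subunit, is built from Rplp0, Rplp1 and Rplp2. Rplp0, its anchor on the ribosome, had 796, 993 and 816 CPM in mutant libraries, against 916, 1079 and 1178 CPM in control libraries. Its log2 change was -0.28 ± 0.13 (SE) with a limma adjusted p of 0.258. Mutant replicate 6 exceeded control replicate 1, so the groups overlapped. Rplp1 had 481, 544 and 498 CPM in mutant libraries, against 525, 547 and 614 CPM in control libraries, a log2 change of -0.15 ± 0.10. Rplp2 had 80.6, 78.8 and 78.9 CPM in mutant libraries, against 82.0, 92.5 and 87.9 CPM in control libraries, and all 3 mutant values were the lower ones. Its log2 change was small, -0.14 ± 0.08, with a limma adjusted p of 0.385.

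Among the other large subunit genes the lowest change belonged to Rpl30 (chr15:34440505-34443640), whose yeast counterpart represses the splicing of its own transcript. Rpl30 had 29.7, 33.1 and 28.3 CPM in mutant libraries, against 45.1, 40.8 and 53.5 CPM in control libraries. The groups did not overlap. Its log2 change was -0.59 ± 0.12 (SE), 0.654 of the control mean, and its limma adjusted p of 0.0688 missed the threshold. Its 4 copies held more reads than the gene, 86.98 CPM on average, and with them added the log2 change was -0.30 ± 0.09 (limma adjusted p = 0.126). Without control replicate 2 the change of Rpl30 alone was -0.68 and passed, the only member to do so in any left-out-library fit. Rpl30 was also the only one of the 87 members (1.15%) in the authors' filtered list, which holds 11.1% of all genes.

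Rpl37a, a zinc-binding protein of the large subunit, had 21.3, 25.1 and 23.2 CPM in mutant libraries, against 26.4, 47.2 and 28.7 CPM in control libraries (log2 change -0.49 ± 0.20, limma adjusted p = 0.205). Rpl10a, the protein of the mobile L1 stalk, had 30.7, 37.2 and 34.3 CPM in mutant libraries, against 40.6, 58.5 and 44.0 CPM in control libraries (log2 change -0.46 ± 0.15, limma adjusted p = 0.134). In both genes the groups did not overlap, and control replicate 2 was the highest library. With copies added the log2 change was -0.22 ± 0.08 for Rpl37a and -0.33 ± 0.11 for Rpl10a. Rpl41, the smallest ribosomal protein, had 248, 305 and 243 CPM in mutant libraries, against 285, 467 and 348 CPM in control libraries, with overlapping groups (log2 change -0.44 ± 0.17, limma adjusted p = 0.193). Rpl29 split the libraries another way, with 55.7, 65.3 and 135.8 CPM in mutant libraries, against 138.8, 133.4 and 73.8 CPM in control libraries. Mutant replicate 7 lay with control replicates 1 and 2, and mutant replicates 5 and 6 with control replicate 3, so its log2 change of -0.48 had an SE of 0.34. With copies added the log2 change of Rpl29 was -0.34 ± 0.15. Rpl6l, annotated as a pseudogene, had 29.6, 35.9 and 29.4 CPM in mutant libraries, against 38.3, 50.2 and 43.2 CPM in control libraries, with no overlap (log2 change -0.46 ± 0.13, limma adjusted p = 0.110).

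Rpl5 and Rpl11 form a complex with 5S rRNA that is built into the 60S subunit and that, when free, binds the p53 ligase Mdm2. Rpl5 had 53.1, 54.9 and 50.7 CPM in mutant libraries, against 44.8, 37.9 and 56.2 CPM in control libraries (log2 change 0.21 ± 0.14). Rpl11 had 9.05, 8.87 and 9.36 CPM in mutant libraries, against 5.87, 9.84 and 7.56 CPM in control libraries (log2 change 0.23 ± 0.19). The groups overlapped in both. Most reads of these genes' sequence stood in their copies, and with the copies added the log2 change was 0.01 ± 0.15 for Rpl5 and -0.20 ± 0.10 for Rpl11. Rpl3, which reaches the peptidyl transferase centre, had 120, 140 and 133 CPM in mutant libraries, against 128, 87.9 and 146 CPM in control libraries, where control replicate 2 was the low one (log2 change 0.15 ± 0.17, and -0.09 ± 0.13 with copies added).

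Of the 4 members on the X chromosome, Rpl10, a late-joining protein near the P site, had 10.7, 7.83 and 9.39 CPM in mutant libraries, against 7.66, 11.3 and 9.22 CPM in control libraries. Its log2 change was -0.0047 with an SE of 0.18, and -0.29 ± 0.11 with its copies added. Rpl36a had 5.51, 6.17 and 5.06 CPM in mutant libraries, against 5.86, 5.12 and 8.63 CPM in control libraries (log2 change -0.17 ± 0.21). Its copies held 254 CPM on average, and with them added the log2 change was -0.10 ± 0.11. Rpl39, which lines the exit tunnel, had 51.1, 55.8 and 48.6 CPM in mutant libraries, against 54.0, 70.6 and 59.5 CPM in control libraries (log2 change -0.23 ± 0.12). The groups overlapped in all of these. Rps4x, a small subunit protein, had 143, 173 and 145 CPM in mutant libraries, against 169, 217 and 189 CPM in control libraries (log2 change -0.31 ± 0.12, limma adjusted p = 0.179), with mutant replicate 6 above control replicate 1. With copies added the log2 change of Rps4x was -0.14 ± 0.10.

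In the small subunit the lowest change belonged to Rps16 (chr7:28350652-28353155), whose tail touches the P-site tRNA. Rps16 had 33.7, 46.7 and 32.5 CPM in mutant libraries, against 46.6, 58.1 and 56.8 CPM in control libraries, and mutant replicate 6 met control replicate 1. Its log2 change was -0.52 ± 0.15 with a limma adjusted p of 0.119, and with its copies added it was again -0.52. Rps3 (chr7:99477896-99483738), at the mRNA entry channel, had 342, 410 and 361 CPM in mutant libraries, against 419, 537 and 559 CPM in control libraries. Its groups did not overlap, 97.0% of its sequence words were unique, and its log2 change was -0.44 ± 0.13 (limma adjusted p = 0.116). Rps20 (chr4:3831334-3835665), a protein of the 40S head, had 107, 130 and 124 CPM in mutant libraries, against 145, 162 and 158 CPM in control libraries. The groups again did not overlap, 92.6% of its words were unique, and its log2 change was -0.37 ± 0.10 (limma adjusted p = 0.103).

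Rps6, the substrate of S6 kinase downstream of mTORC1, had 46.8, 62.9 and 46.8 CPM in mutant libraries, against 50.7, 58.7 and 63.0 CPM in control libraries (log2 change -0.15 ± 0.14). Only 15.4% of its words were unique and its copies held 783 CPM on average. With them added the log2 change of Rps6 was -0.08 ± 0.13. Rps19, often mutated in Diamond-Blackfan anaemia, had 130, 167 and 138 CPM in mutant libraries, against 164, 155 and 202 CPM in control libraries (log2 change -0.26 ± 0.13). In both genes mutant replicate 6 lay among the controls. Rpsa, which is also a laminin receptor precursor, had 981, 1217 and 1110 CPM in mutant libraries, against 1073, 975 and 1352 CPM in control libraries (log2 change -0.03 ± 0.14).

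The 4 highest changes among members with a mean of at least 10 CPM were of small subunit genes, Rps3a3, Rps2, Rps23 and Rps27a. Rps2, at the mRNA entry channel, had 224, 270 and 132 CPM in mutant libraries, against 148, 145 and 166 CPM in control libraries. Mutant replicates 5 and 6 were high and mutant replicate 7 was the lowest of all, giving a log2 change of 0.39 ± 0.22 (limma adjusted p = 0.354), which turned to -0.10 ± 0.10 with its copies added. Rps23, in the decoding centre, had 94.7, 117 and 87.1 CPM in mutant libraries, against 92.2, 46.9 and 112 CPM in control libraries, where control replicate 2 alone was low (log2 change 0.33 ± 0.28). Rps27a, made as a fusion with ubiquitin, had 123, 178 and 150 CPM in mutant libraries, against 137, 86.3 and 167 CPM in control libraries, and control replicate 2 was again the low one (log2 change 0.24 ± 0.23). With copies added the log2 change was 0.01 ± 0.13 for Rps23 and -0.07 ± 0.14 for Rps27a.

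**Figure D2:**
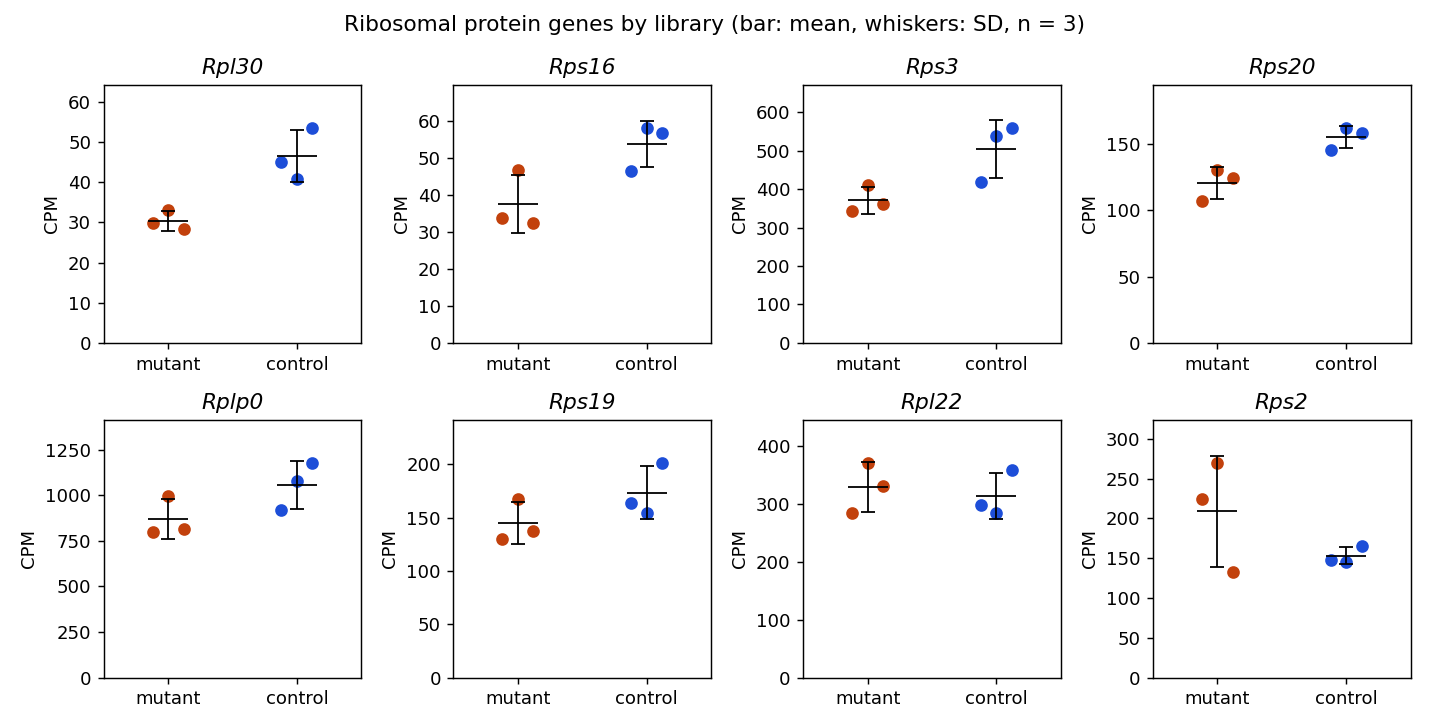
CPM of 8 members in each library, mutant left (replicates 5, 6 and 7 from left to right) and control right (replicates 1, 2 and 3), with the mean and SD of 3 libraries. Rpl30, Rps3 and Rps20 show no overlap between the groups, Rps16, Rplp0, Rps19 and Rpl22 overlap, and in Rps2 mutant replicate 7 lies below every control.

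The paralog pairs overlapped between the groups. Rpl22 binds RNA and is known to repress its paralog Rpl22l1. Rpl22 had 285, 372 and 331 CPM in mutant libraries, against 298, 286 and 359 CPM in control libraries (log2 change 0.07 ± 0.13). Rpl22l1 had 36.5, 38.3 and 32.9 CPM in mutant libraries, against 31.7, 28.0 and 39.0 CPM in control libraries (log2 change 0.13 ± 0.13). The ratio of Rpl22l1 to Rpl22 was 0.128, 0.103 and 0.0993 in mutant libraries, against 0.106, 0.0978 and 0.108 in control libraries, with overlapping groups (exact permutation p = 0.8).

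Rps27l, a p53 target in addition to its ribosomal role, had 17.4, 17.7 and 18.2 CPM in mutant libraries, against 17.8, 15.6 and 19.9 CPM in control libraries, a log2 change of 0.00 ± 0.13. Its paralog Rps27 had 1.31, 2.80 and 3.03 CPM in mutant libraries, against 2.20, 2.88 and 1.30 CPM in control libraries, and 1.35% of its sequence words were unique. Rpl7 had 464, 558 and 475 CPM in mutant libraries, against 463, 496 and 569 CPM in control libraries (log2 change -0.03 ± 0.11). Rpl7l1 had 80.3, 96.4 and 86.1 CPM in mutant libraries, against 99.7, 86.9 and 98.3 CPM in control libraries (log2 change -0.12 ± 0.10). Rpl36al had 61.7, 65.6 and 60.4 CPM in mutant libraries, against 62.8, 58.4 and 71.1 CPM in control libraries (log2 change -0.03 ± 0.10). The groups overlapped in each of these 5 genes. The paralogs Rpl3l, Rpl10l and Rpl39l were not analysed here.

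Of all members Rps3a3 varied most between libraries. Rps3a3, annotated as a pseudogene, had 111, 9.59 and 127 CPM in mutant libraries, against 6.53, 129 and 12.8 CPM in control libraries. Its level was thus high in mutant replicates 5 and 7 and control replicate 2 and low in the other 3 libraries, a 19.7-fold range that did not follow the genotype (log2 change 1.16 ± 1.16). Rps3a1, the coding gene, ran the opposite way, with 120, 220 and 121 CPM in mutant libraries, against 191, 104 and 214 CPM in control libraries. Rps3a2, a second pseudogene copy, had 194, 166 and 190 CPM in mutant libraries, against 186, 324 and 227 CPM in control libraries. Summed, the 3 genes had 425, 395 and 438 CPM in mutant libraries, against 384, 556 and 454 CPM in control libraries, with overlapping groups (exact permutation p = 0.5). Only 9.83% of the words of Rps3a2, 29.0% of those of Rps3a1 and 34.9% of those of Rps3a3 were unique. In all, 12 members varied more than 2-fold between their lowest and highest library.

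Many members had fewer reads than their copies. Every 50-base word of the member's annotated transcripts was looked up in all other annotated transcripts, and a gene sharing at least 10% of the words was taken as a copy. Of 447 annotated copies, the 228 that stood in the table and were not themselves members were assigned to 75 members. The treatment of reads that match several places is not stated in the labels or notes used here. In 45 of the 87 members the copies together held more CPM than the gene itself. These members had a median of 39.0% unique words, against 66.6% for the other 42.

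Rpl23a, a docking site for nascent-chain factors at the exit tunnel, was the extreme, with a mean of 0.769 CPM over the 6 libraries and 814 CPM in its copies. Rpl17 had 4.56 CPM and 501 CPM in its copies, Rpl10 had 9.36 and 495 CPM, and Rpl5 had 49.6 and 1260 CPM. Rps27 had 2.25 CPM and 155 CPM in its copies, chiefly Rps27rt, a coding copy annotated as a gene of its own. Rps27rt had 121, 152 and 125 CPM in mutant libraries, against 156, 192 and 177 CPM in control libraries, with no overlap between the groups and a log2 change of -0.40 ± 0.12 (limma adjusted p = 0.116).

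**Figure D3:**
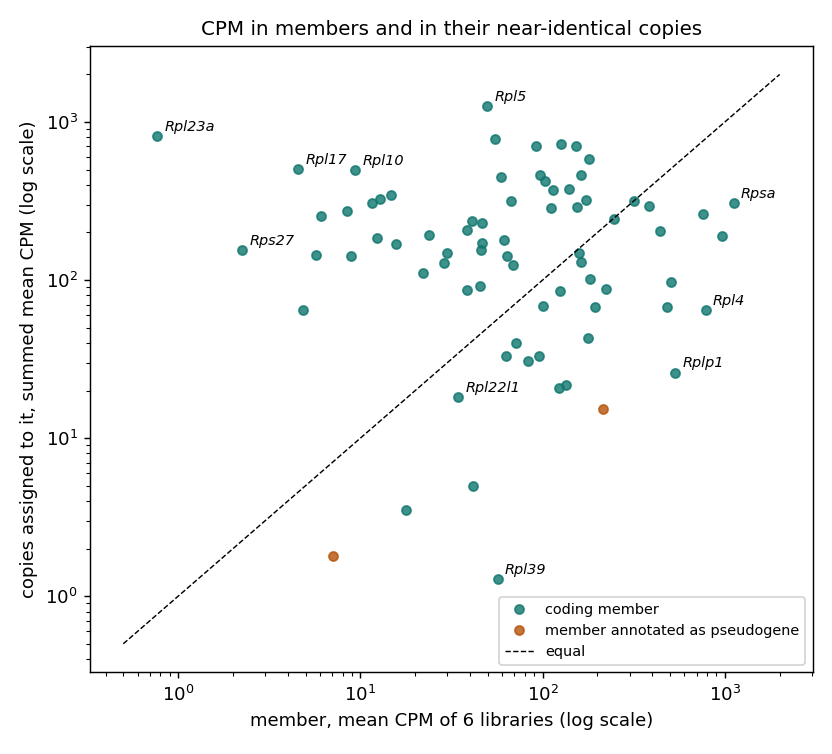
Mean CPM of each member over the 6 libraries (horizontal) against the summed mean CPM of the copies assigned to it (vertical), both on log scales, for the members that have an assigned copy with reads; the dashed line marks equal values. Rpl23a lies farthest above the line, at 0.769 CPM against 814 CPM in copies, and Rpl39, Rplp1 and Rpl4 lie well below it.

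Adding the copies brought the members closer to one another in level. Per kb of annotated transcript, the 81 coding members had mean levels between 1.37 CPM per kb (Rpl23a) and 1072 CPM per kb (Rplp1), with an upper quartile 5.42 times the lower. With copies added the levels ran between 32.1 CPM per kb (Rps15a, whose annotated transcript of 5179 bases is the longest) and 1455 CPM per kb (Rpl23a), with an upper quartile 2.77 times the lower. Over the 81 coding members, which share the libraries, the Spearman correlation of the level per kb with the share of unique words was 0.24 for the genes alone and -0.43 with copies.

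With copies added the members lay lower in mutant libraries slightly more often. The median log2 change was -0.20, and 79 of the 87 were below 0. In the refit over 21710 genes 0 members were called by limma at an adjusted p under 0.05, where 0.617% of all genes were, and 25 were lower at an unadjusted p under 0.05 (28.7%, against 8.04% of all genes) with 0 higher. Members and copies together had 27392, 33495 and 29085 CPM in mutant libraries, against 31156, 31742 and 37501 CPM in control libraries (difference -10.4%, exact permutation p = 0.3). The groups overlapped here too. The 36 members with at least 60% unique words had a median log2 change of -0.20, with 12 (33.3%) lower at an unadjusted limma p under 0.05. The other 51 had a median of -0.13, with 9 (17.6%) lower, where 8.07% of all genes were lower. Across the 87 members the Spearman correlation of the log2 change with the share of unique words was -0.16.

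The members are short genes with few introns, and other short genes also lay lower in mutant libraries. Their median annotated transcript had 833 bases and 4 introns over a span of 2905 bases, while genes with a mean of at least 10 CPM had medians of 3267 bases, 8 introns and 24224 bases of span. Among 784 other genes of at least 10 CPM with transcripts up to 1000 bases the median log2 change was -0.12, with 18.9% lower and 4.08% higher at an unadjusted limma p under 0.05. The 50 members of that length had a median of -0.22. Among 1636 other genes with transcripts over 6000 bases the median was 0.06, with 6.17% lower and 18.8% higher. The step between these classes ran one way through all 5 length classes of the other genes, and was not tested. Among the members themselves the Spearman correlation of log2 change with log2 transcript length was 0.04.

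**Figure D4:**
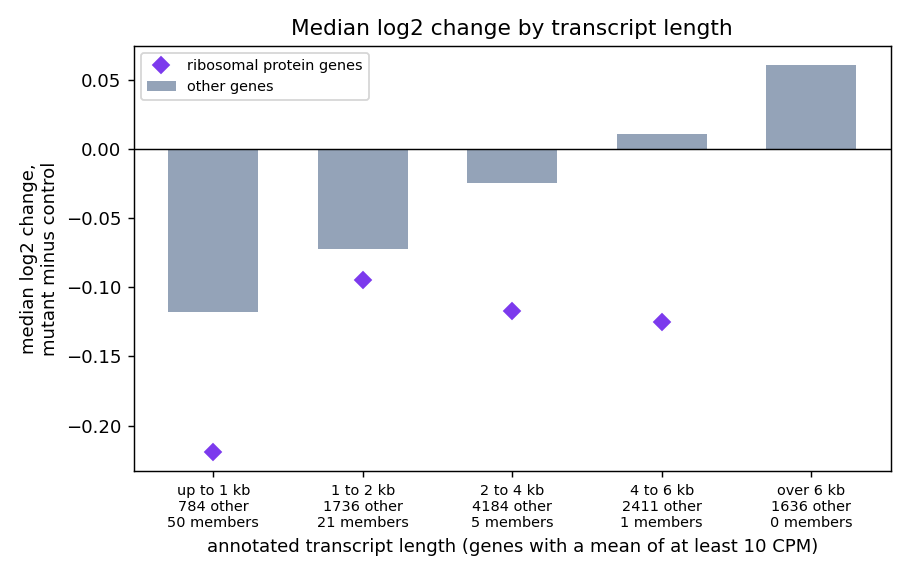
Median log2 change (mutant minus control) by annotated transcript length, for genes averaging 10 CPM or more; violet diamonds are the members and grey bars the other genes, with the number of each under the axis. The bars run from -0.12 for transcripts up to 1 kb to 0.06 for those over 6 kb, and the diamond of the 50 shortest members stands at -0.22.

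Most RNAs that stay in the nucleus ran the other way. Of 20 nuclear-retained noncoding RNAs on the list 18 were measured, 13 above 0 and 5 below 0, with a median log2 change of 0.48. By limma 2 rose in mutant libraries at an adjusted p under 0.05, where 0.196% of all genes did. At an unadjusted p under 0.05, 10 (55.6%) were higher and 2 (11.1%) lower, where 13.4% and 8.07% of all genes were. The groups did not overlap in 8 (44.4%) with mutant higher and 2 (11.1%) with mutant lower, against 17.1% and 10.8% of all genes. Those named here all had changes above 0. Kcnq1ot1, an imprinted antisense RNA that silences its neighbours, had 1522, 1244 and 1422 CPM in mutant libraries, against 691, 800 and 694 CPM in control libraries (log2 change 0.94 ± 0.12, limma adjusted p = 0.0276). Mir99ahg, the host RNA of a microRNA cluster, had 106, 89.8 and 111 CPM in mutant libraries, against 52.3, 58.7 and 41.1 CPM in control libraries (log2 change 1.01 ± 0.14, limma adjusted p = 0.0308). Malat1, a nuclear speckle RNA, had 18269, 15225 and 17561 CPM in mutant libraries, against 8889, 10498 and 9477 CPM in control libraries. The groups did not overlap, yet its limma adjusted p of 0.0854 missed the threshold. This 1 RNA thus had more reads than all 87 ribosomal protein genes in each mutant library, and fewer in each control library. That holds for the members without their copies. Members and copies together summed to 27392, 33495 and 29085 CPM in mutant libraries, against 31156, 31742 and 37501 CPM in control libraries. Malat1 lay below that larger sum in every library. The ratio of Malat1 to the members' sum was 1.53, 1.05 and 1.39 in mutant libraries, against 0.667, 0.740 and 0.586 in control libraries, with an exact permutation p of 0.1, the smallest possible, and 0.48 after adjustment over the 8 tests. Neat1, the paraspeckle RNA, had 290, 131 and 231 CPM in mutant libraries, against 50.7, 133 and 41.2 CPM in control libraries (limma adjusted p = 0.0934), with mutant replicate 6 near control replicate 2.

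**Figure D5:**
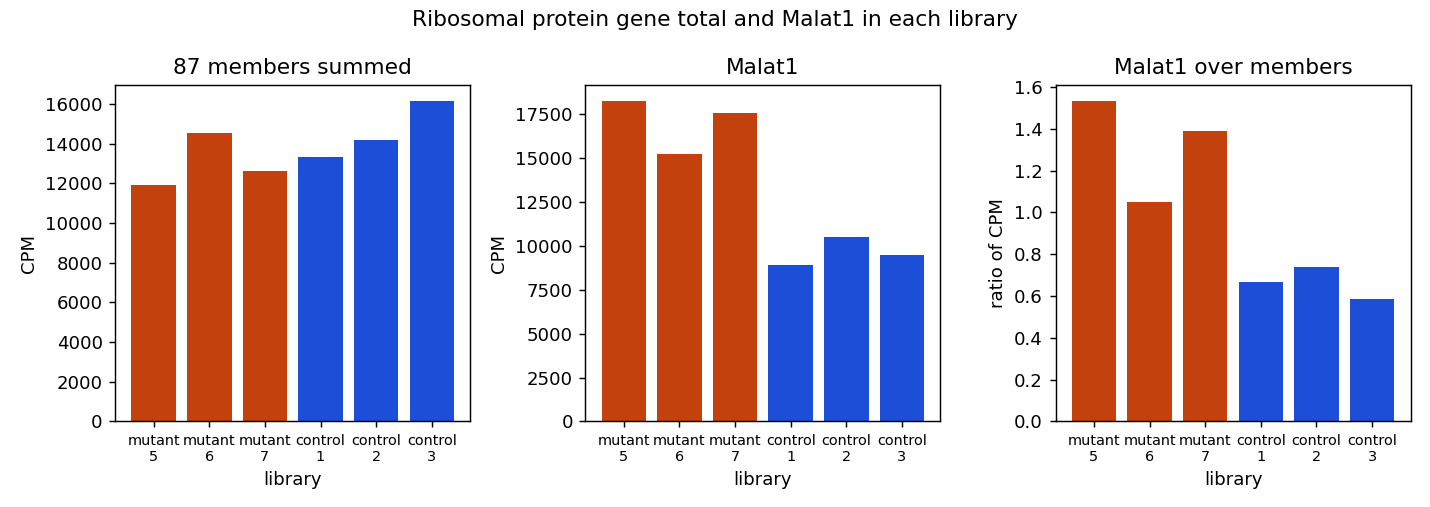
The sum of the 87 members (left, CPM), Malat1 (middle, CPM) and the ratio of Malat1 to that sum (right) in each library, mutant libraries in orange and control libraries in blue. The sums overlap between groups, at 11915 to 14532 CPM in mutant and 13330 to 16160 CPM in control, while the ratio is above 1 in each mutant library and below 0.75 in each control library. The sums leave out the members' copies, and with copies added Malat1 would lie below the sum in every library.

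Most genes that work with the ribosome also lay slightly lower in mutant libraries. Outside the naming rule, Fau, a ubiquitin-like fusion with Rps30, had 49.8, 59.5 and 53.9 CPM in mutant libraries, against 59.9, 86.0 and 78.8 CPM in control libraries (log2 change -0.44 ± 0.14, limma adjusted p = 0.133). Rack1, a scaffold on the 40S head, had 387, 471 and 394 CPM in mutant libraries, against 465, 596 and 562 CPM in control libraries (log2 change -0.37 ± 0.12, limma adjusted p = 0.145). The groups overlapped in Rack1 and did not in Fau. Of 24 translation factors and other TOP mRNAs 0 were called by limma, and the median log2 change was -0.16. At an unadjusted p under 0.05, 9 (37.5%) were lower and 0 higher, where 8.07% and 13.4% of all genes were. Among them the elongation factor Eef2 had 1103, 1226 and 1134 CPM in mutant libraries, against 1428, 1538 and 1513 CPM in control libraries, with no overlap (log2 change -0.37 ± 0.10, limma adjusted p = 0.104). Btf3, a subunit of the nascent polypeptide-associated complex, had 66.2, 75.8 and 68.8 CPM in mutant libraries, against 86.3, 98.4 and 95.8 CPM in control libraries (limma adjusted p = 0.0773).

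Among the regulators and builders of the ribosome the medians lay nearer 0. Of 23 genes of TOP mRNA control and mTORC1 0 were called by limma, with 4 (17.4%) lower and 1 (4.35%) higher at an unadjusted p under 0.05 and a median log2 change of -0.09. Tia1, which binds TOP mRNAs under stress, had 263, 270 and 262 CPM in mutant libraries, against 214, 216 and 197 CPM in control libraries, the higher one of these (log2 change 0.34 ± 0.08, limma adjusted p = 0.0788). Of 40 ribosome biogenesis genes 0 were called by limma, and the median was 0.03. At that p 5 (12.5%) were lower and 3 (7.50%) higher, where 8.07% and 13.4% of all genes were. Fbl, the methyltransferase of box C/D snoRNPs, had 21.3, 26.3 and 28.3 CPM in mutant libraries, against 32.5, 44.4 and 33.4 CPM in control libraries (log2 change -0.52 ± 0.15, limma adjusted p = 0.119). Of 17 measured snoRNA host genes, of 19 on the list, 0 were called and 0 reached an unadjusted limma p under 0.05 in either direction, with a median of 0.00. Of 15 p53 targets 0 were called by limma and 1, Mdm2, was higher at an unadjusted p under 0.05, with 82.1, 83.1 and 84.5 CPM in mutant libraries, against 69.4, 70.7 and 65.1 CPM in control libraries. Of 127 symbols holding -ps 0 were called by limma, 19 were lower and 4 higher at an unadjusted p under 0.05, and the median was -0.17.

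The libraries differed in other ways along with the members. Counted reads, read from the step between low values, were 12272869 to 15089422 in mutant and 10018637 to 12842745 in control libraries, so 3 reads amount to 0.199 to 0.299 CPM, below the mean of every member. Ctnnb1, the gene deleted in the mutants, had 585, 633 and 582 CPM in mutant libraries, against 699, 784 and 671 CPM in control libraries (log2 change -0.26 ± 0.10, limma adjusted p = 0.183); reads outside the floxed exons count too, so the gene total is a weak check of the genotype. All 15 palatal mesenchyme markers were detected. Of these 1, Osr2, fell by limma at an adjusted p under 0.05, with 12.96, 19.4 and 15.9 CPM in mutant libraries, against 34.5, 56.2 and 49.9 CPM in control libraries (log2 change -1.47 ± 0.20, limma adjusted p = 0.0285). Only the mutants carry Osr2-Cre, so the Cre allele and the loss of b-catenin cannot be told apart in the Osr2 level. At an unadjusted p under 0.05, 4 of the 15 were lower and 1 higher, and their median log2 change was -0.16. Of 15 skeletal muscle markers 8 fell by limma at an adjusted p under 0.05, and their sum was 4638 to 5761 CPM in mutant and 7040 to 14687 CPM in control libraries. The 9 measured erythroid markers, of 11, were all lower at an unadjusted p under 0.05, with sums of 790 to 1386 CPM in mutant and 1629 to 4813 CPM in control libraries. Of 14 motile cilium markers 13 were higher at that p, with sums of 390 to 528 CPM in mutant and 122 to 322 CPM in control libraries. At the same p, 2 of 10 epithelial markers were higher, 1 of 8 macrophage markers was lower, and 0 of 8 endothelial and 0 of 10 neural and glial markers reached it in either direction. Ribosomal RNA of the mitochondria took 5.96 to 6.67% of CPM in mutant and 3.88 to 5.85% in control libraries. Other ribosomal RNA overlapped between the groups, with 4.71 to 5.48% in mutant and 3.97 to 6.89% in control libraries, highest in control replicate 3. The part of these in the members' values was not tested, and in such bulk samples fewer cells of a type and less RNA per cell cannot be told apart.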

How the data were processed

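Soft palate RNA from E14.0 mouse embryos was sequenced on a NextSeq 500 in 3 mutant and 3 control libraries, all with an RNA integrity number above 9 per the labels. Per the submitters' processing notes the aligner was STAR and the build mm10, while the labels and notes used here name no library kit, strand, counter or annotation. The authors deposited CPM values in 2 tables, 1 of 21938 genes and 1 of 2432 genes that repeats the values of the first. Each value carries an added 0.0001, judged from the values themselves. The 6 libraries stand in rows that were matched by title, and 0 rows were left unused.

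The constant was removed. Between 63.4 and 67.3% of small CPM values came out as whole reads, to within 0.02 of a read, so counts were not recovered and no count model was used. CPM was tested as log2(CPM + 1) with limma 3.58.1 (R 4.3.3), with a variance trend and no filter over all genes, and Benjamini-Hochberg adjustment; fold changes on this scale understate those of low genes. The fit was tested on simulated data, where the changes set were larger than those of most members. That test does not tell whether changes of the members' size would be found. Single values were compared by exact two-sided permutation tests. Log2 changes are mutant minus control with their SE.

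Genes were matched by symbol to GENCODE vM21 on GRCm38 (97.4% matched once), and lengths come from 1 representative transcript each, so levels per kb depend on that choice. Copies were found by exact 50-base words of that transcript shared on the same strand, and each was assigned to 1 member. The shares of unique words thus depend on the chosen transcript too. The members and gene lists were chosen with earlier results of these data known, and the 10% limit for copies, the split at 60% unique words and the start motifs after seeing the data. Members were named by 3 rules: the 6 highest and 6 lowest log2 changes among members with a mean of at least 10 CPM, the 5 smallest p, and a fixed list. Outside these, Rps3a1, Rps3a2, Rpl23a, Rpl17 and the members in the start windows were chosen after their values were seen. A few genes are not reported here by name. Alternatives tried were a pseudocount of 0.1, a minimum mean of 1 CPM, 3 other scalings, a prior without trend, each library left out, an adjusted p of 0.1, members of at least 10 CPM, members without paralogs named l or l1, and, added after seeing the data, copies summed and members without pseudogenes.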

Additional observations from a re-analysis of the deposited data

How the results depend on the processing

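The median log2 change of the 87 members stayed below 0 under every alternative run, between -0.10 and -0.12 under the 3 other scalings and between -0.22 and -0.08 with each library left out. The log2 ratio of their summed CPM was -0.25 to -0.08 with each library left out. Calls over all genes depended on the setting, with 105 as reported, 0 without a variance trend, 999 at an adjusted p under 0.1, and 0 to 452 with each library left out. Called members numbered 1 at an adjusted p under 0.1 and 0 to 1 with each library left out, where Rpl30 passed without control replicate 2. Members at an unadjusted p under 0.05 numbered 13 without a trend and 10 to 28 with each library left out. None of the members that changed sign was called. Under upper quartile scaling the log2 change was 0.024 for Rpl10, 7.4e-05 for Rpl36al, 0.0024 for Rpl7 and 3.6e-05 for Rpsa, and for Rpl10 it was 0.014 under median ratio scaling and 0.015 with a total that omits the mitochondrial genome and the members. With copies summed it was -0.20 for Rpl11, -0.015 for Rpl22l1, -0.086 for Rpl3, 0.088 for Rpl36al, -0.10 for Rps2, -0.38 for Rps27, -0.070 for Rps27a and -0.051 for Rps27l. With each library left out it ran from -0.13 to 0.12 for Rpl10, -0.025 to 0.17 for Rpl22, -0.060 to 0.30 for Rpl3, -0.31 to 0.018 for Rpl36a, -0.095 to 0.045 for Rpl36al, -0.11 to 0.054 for Rpl7, -0.038 to 0.58 for Rps23, -0.10 to 0.36 for Rps27, -0.028 to 0.44 for Rps27a, -0.082 to 0.084 for Rps27l and -0.13 to 0.10 for Rpsa. The cause was not tested. No paired analysis was possible because mutant and control libraries share no replicate number. With 3 libraries a group the exact permutation tests cannot go below 0.1, and members with copies are limited by how their reads were assigned.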

Other observations

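The ribosome of the mitochondrion and the respiratory chain are also built from many short mRNAs. Of 78 mitochondrial ribosomal protein genes 0 were called by limma at an adjusted p under 0.05, 6 (7.69%, where 8.07% of all genes were lower) were lower and 0 higher at an unadjusted p under 0.05, and the median log2 change was -0.11, with 59 below 0. Of 79 nuclear-encoded respiratory chain genes 0 were called by limma, 16 (20.3%) were lower and 0 higher at that p, and the median was -0.17. Atp5g3, a subunit of the ATP synthase rotor, had 43.8, 45.7 and 41.0 CPM in mutant libraries, against 57.8, 65.1 and 60.03 CPM in control libraries (log2 change -0.48 ± 0.09, limma adjusted p = 0.0621), with no overlap. The 13 mRNAs of the mitochondrial genome ran the other way, with 12 above 0, 2 higher at an unadjusted limma p under 0.05, 0 called and a median of 0.16. Of 21 proteasome and chaperonin genes 0 were called by limma, 6 (28.6%) were lower and 0 higher at an unadjusted p under 0.05, and the median was -0.15.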
